A study of Mus musculus with 5 samples.

Results

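The cytosolic ribosomal protein genes were followed in RNA-Seq of lipopolysaccharide (LPS)-treated bone marrow-derived macrophages (BMDMs) with and without the histone demethylase Kdm6a. They were taken by symbol from the deposited gene table, as every gene whose symbol is Rpl, Rps, Rplp or Rpsa with a number and at most a short suffix such as a, l, x or al. This rule took 82 of 21878 genes, of which 51 encode proteins of the large subunit and 31 proteins of the small subunit. The test covered 10893 genes that reached 1 FPKM (a read level scaled to transcript length and to the size of the library) in at least 2 samples, and 80 of the 82 were among them. Rpl10l, a copy of Rpl10 that in mice is active mainly in testis, was listed at 0 in all 5 samples. Rpl3l, a copy of Rpl3 made mainly in striated muscle, was listed at 0 in 3 samples and at 0.11 and 0.13 FPKM in Kdm6a-deficient samples 1 and 2. These 2 genes were not tested.

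The cytosolic ribosome is built from a large subunit, which forms peptide bonds, and a small subunit, which reads the mRNA. Each subunit is a core of ribosomal RNA covered by proteins that are needed in matched amounts, and their genes are scattered over the genome rather than clustered. Ribosomal protein mRNAs in mammals begin with a short run of pyrimidines (C or T), the terminal oligopyrimidine or TOP motif. This motif places their translation and stability under the mTORC1 kinase and the RNA-binding protein Larp1. Several translation factors, Eef1a1 and Eef2 among them, carry the same motif.

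The comparison set 2 wild-type samples, from Kdm6aF/Y males, against 3 Kdm6a-deficient samples, from Kdm6aF/Y;Lyz2-Cre males. Both genotypes carry the floxed Kdm6a allele and all 5 samples were treated with LPS, so that the wild-type cells differ from the deficient cells by the absence of Cre and there is no untreated group. The study's methods give 10-week-old males as the source of BMDMs, and its mice were crossed back to C57BL/6J. Cre is driven from the Lyz2 locus, which is active in macrophages and granulocytes. Wild-type samples carry the numbers 1 and 3, and deficient samples the numbers 1, 2 and 3. The methods speak of pooled RNA and no source says which samples came from separate mice, so the p-values below speak only of how far these samples spread, part of which may be technical.

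Depth relative to wild-type sample 1 was estimated as the median ratio of FPKM over genes of low mean count. It was 1.12 in wild-type sample 3 and 0.997, 1.03 and 0.993 in deficient samples 1, 2 and 3. Only ratios close to equal depth were kept, so a large difference in depth could not have been found. Kdm6a itself, counted over the whole gene, had 3.72 and 2.91 FPKM in wild-type cells against 2.81, 1.77 and 2.44 FPKM in deficient cells. All deficient samples lay below both wild-type samples, but the difference did not pass the test (adjusted p = 0.27 by limma), and transcripts lacking only the floxed part still count here. The macrophage marker Adgre1, which encodes F4/80, was at 736 and 745 FPKM in wild-type and at 786, 734 and 831 FPKM in deficient samples. Csf1r, the receptor for M-CSF, was at 232 and 241 FPKM against 244, 269 and 250 FPKM. Csf1r, Cd68 and Mertk, 3 of 7 macrophage markers, had all deficient samples above both wild-type samples, and 1, Lyz2, had all below. The backgrounds over all tested genes were 16.7% and 19.2%. Of 4 erythroid markers 3 were at 0 throughout. Stromal markers were lower in deficient cells, with 4 of 7 called and a summed level of 2734 to 2979 FPKM in wild-type samples against 1985 to 1994 FPKM in deficient samples. Endothelial markers were called lower in 1 of 3 tested, with a summed level of 19.4 to 19.6 FPKM in wild-type and 10.4 to 12.2 FPKM in deficient samples. Of 7 macrophage markers 1 was called, Lyz2, the locus that carries Cre, which was lower, and none of 6 neutrophil, 3 lymphoid and 5 cycling markers tested was called. Summed neutrophil markers were at 1945 to 2057 FPKM in wild-type and at 1956 to 2521 FPKM in deficient samples, highest in deficient sample 2. The part of these marker genes in the ribosomal protein results was not tested.

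The start regions of ribosomal protein genes are shown first because the pyrimidine run is what this family shares in sequence and what the rule did not use. RefSeq (GRCm38.p6) supplied 74 start regions for 62 of the 82 genes. Each window below holds 40 bases before and 20 bases from the annotated start, written 5′ to 3′ on the gene's strand, with the longest pyrimidine run in capitals. The first 8 genes are from the 12 with a start region that had all 3 deficient samples below both wild-type samples. The last 2 were among the 4 genes with the largest positive fold change. Of the 12, those not shown had longest runs in such windows of 3 bases in Rpl23, 9 in Rpl39l, 10 in Rps6, and 9 and 19 in Rps24.
Rps15a, chr7:118116128-118116187, minus strand: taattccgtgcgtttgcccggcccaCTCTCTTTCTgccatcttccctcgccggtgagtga
Rpl5, chr5:107900488-107900547, plus strand: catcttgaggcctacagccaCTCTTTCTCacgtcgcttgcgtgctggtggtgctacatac
Rpl13a, chr7:45128726-45128785, minus strand: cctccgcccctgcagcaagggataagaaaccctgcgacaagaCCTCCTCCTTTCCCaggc
Rps12, chr10:23787190-23787249, minus strand: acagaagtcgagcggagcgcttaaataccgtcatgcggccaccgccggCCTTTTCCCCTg
Rpl15, chr14:18270967-18271026, minus strand: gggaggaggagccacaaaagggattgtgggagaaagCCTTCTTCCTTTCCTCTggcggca
Rpl35, chr2:39005112-39005171, minus strand: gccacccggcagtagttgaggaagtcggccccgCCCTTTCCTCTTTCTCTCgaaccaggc
Rps2, chr17:24720023-24720082, plus strand: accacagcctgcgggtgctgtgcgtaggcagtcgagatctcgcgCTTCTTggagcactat
Rplp0, chr5:115559427-115559486, plus strand: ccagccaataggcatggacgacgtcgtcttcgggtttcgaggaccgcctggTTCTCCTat
Rpl38, chr11:114668540-114668599, plus strand: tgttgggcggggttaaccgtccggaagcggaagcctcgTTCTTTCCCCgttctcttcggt
Rpl36al, chr12:69184048-69184107, minus strand: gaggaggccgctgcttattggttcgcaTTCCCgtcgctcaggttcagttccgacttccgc

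In these 10 windows the run was longest in Rpl35, at 18 bases, followed by Rpl15 at 17 bases and Rpl13a at 14 bases, and shortest in Rpl36al, at 5 bases. It lay across or close to the annotated start in Rpl35, Rpl15 and Rpl38, and up to 20 bases before it in Rps15a and Rpl5. Over the wider interval from 30 bases before to 50 bases after the start, a run of at least 10 pyrimidines was present in 42 of the 62 ribosomal protein genes (67.7%). The same was true of 1343 of 8730 other tested genes (15.4%) and of 16.1% of all 27025 genes with a start region. The median longest run was 10 bases in ribosomal protein genes and 6 bases in other tested genes.

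**Figure D1:**
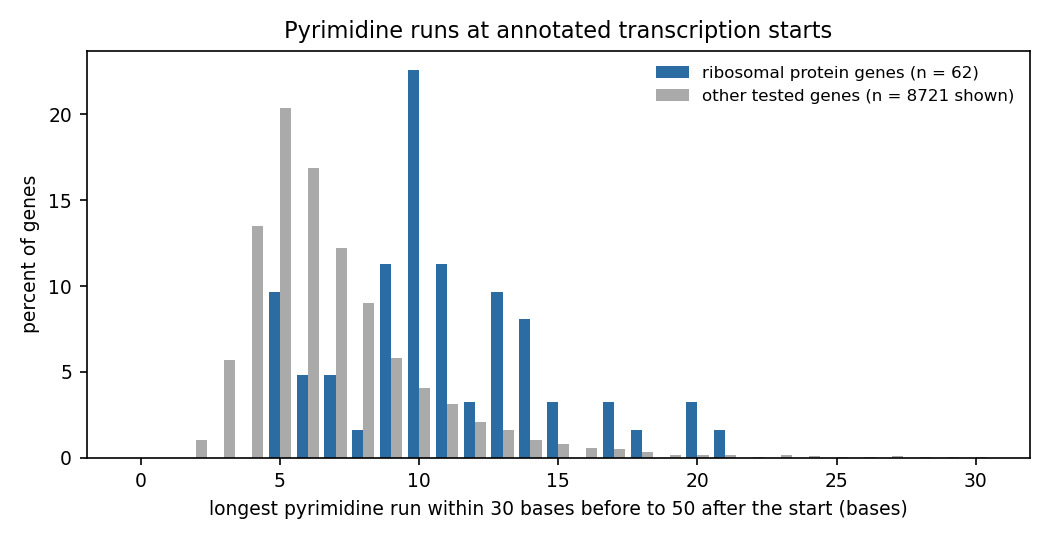
Longest run of pyrimidines from 30 bases before to 50 bases after the annotated start (horizontal axis, bases) as a percentage of genes (vertical axis), in 62 ribosomal protein genes (blue) and other tested genes (grey). The ribosomal protein genes peak at 10 bases and other tested genes at 5 bases, and runs over 30 bases are not drawn.

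Over the full window of 250 bases before to 50 bases after the start, CTTTCC on the gene's strand occurred in 41.9% of ribosomal protein genes, 17.1% of other tested genes and 16% of all genes. CTCTTTC, which shares CTTTC with it, occurred on the gene's strand in 21.0% against 4.6% and 4.6%. CCGGAAG, a core sequence of Ets-family factors, was present on either strand in 40.3%, 21.2% and 9.9%. AAGATGGC, a core of the Yy1 sequence, was present on either strand in 8.1%, 5.5% and 3.2%, and TATAAA on the gene's strand in 9.7%, 5.2% and 9.8%. A match is a description of these letters only. Within the family, runs of at least 10 pyrimidines were counted beside the overlap between genotypes, not by the sign of the fold change. Such a run was found in 8 of 12 genes with all deficient samples below both wild-type samples. It was found in 34 of 48 of the other tested genes of the family, whichever the sign of their fold change. Genes with such a run had a median log2 fold change of −0.12 (42 genes), and so did those without it (18 genes).

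Ribosomal protein mRNAs were among the most abundant in these cells. Their FPKM summed to 10.1% and 10.4% of all FPKM in wild-type samples 1 and 3 and to 8.86%, 10.4% and 9.20% in deficient samples 1, 2 and 3. Deficient samples 1 and 3 therefore lay below both wild-type samples, while deficient sample 2 lay at the wild-type level. As this is bulk RNA, fewer cells with a high level and less RNA per cell cannot be told apart.

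In the large subunit the highest FPKM levels were those of Rpl41, Rpl35 and Rplp1. Rpl41, which encodes one of the smallest proteins known in mammals, was at 1829 and 1922 FPKM in wild-type samples 1 and 3 and at 1597, 2149 and 1780.1 FPKM in deficient samples 1, 2 and 3. Deficient sample 2 was the highest of the 5 and deficient sample 1 the lowest, so the genotypes overlapped. Rpl35, found near the exit of the peptide tunnel, measured 1352 and 1351 FPKM in wild-type against 1160, 1286 and 1213 FPKM in deficient cells, without overlap. Rpl32l was the lowest of the tested genes, at 0.96 and 1.26 FPKM in wild-type and 0.80, 1.13 and 0.43 FPKM in deficient samples, and Rpl39l and Rpl21 came next. Rpl21 measured 41.8 and 39.9 FPKM in wild-type and 36.4, 42.9 and 36.7 FPKM in deficient samples, with deficient sample 2 highest.

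In the small subunit the order by FPKM was led by Rps29, Rps23 and Rps26. Rps29, a small zinc-binding protein, had 1308 and 1425 FPKM in wild-type samples and 1176, 1822 and 1359 FPKM in deficient samples 1, 2 and 3. Its spread among the deficient samples was wider than the gap between genotypes. Rps23, which lies at the decoding centre, measured 1189 and 1243 FPKM against 1019, 1286 and 1059.8 FPKM, and Rps26, near the mRNA exit channel, 1125 and 1127 FPKM against 981, 1240.1 and 1036 FPKM. In both genes deficient samples 1 and 3 were below, and deficient sample 2 above, the wild-type pair. At the low end, Rps27l, a copy of Rps27 that responds to p53, was at 29.7 and 27.6 FPKM in wild-type and 26.0, 29.1 and 25.5 FPKM in deficient samples.

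The main comparison asked whether loss of Kdm6a changed the mRNA level of ribosomal protein genes after LPS. No ribosomal protein gene passed the test over all genes (limma, adjusted p under 0.05), in either direction, where 3.91% of the 10893 tested genes did. Of the 80 tested genes 9 had an unadjusted p under 0.05 and were lower, 5 of the large and 4 of the small subunit, and no gene of the family had such a p and was higher. The background for a lower value at this p was 9.22%, close to 9 of 80. The fold change was below 0 in 68 of the 80, 42 of 49 large and 26 of 31 small subunit genes, where the background was 48.5%. The median log2 fold change was −0.11 for the family (quartiles −0.16 and −0.05) and 0.01 for all tested genes. These genes move together between samples, and the share below 0 is not 80 separate observations.

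Sample by sample, the family did not divide by genotype alone. The median difference of a ribosomal protein gene from its own mean over the 5 samples was 0.03 and 0.11 on the log2 scale in wild-type samples 1 and 3. In deficient samples 1, 2 and 3 it was −0.19, 0.17 and −0.10. Deficient samples 1 and 3 were thus below, and deficient sample 2 was above, the wild-type samples. Of the 80 genes, 57 had their highest value in deficient sample 2, 17 in wild-type sample 3 and 6 in wild-type sample 1. Deficient sample 1 held the lowest value of 61 and deficient sample 3 that of the other 19. Over all tested genes, the highest value was in wild-type sample 3 for 23.3% and in wild-type sample 1 for 15%. The lowest was in deficient sample 1 for 21.9% and in deficient sample 3 for 10.6%. Deficient sample 2 also held the highest value of 30.9% and the lowest value of 28.0% of all tested genes, so it stood apart beyond this family.

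**Figure D2:**
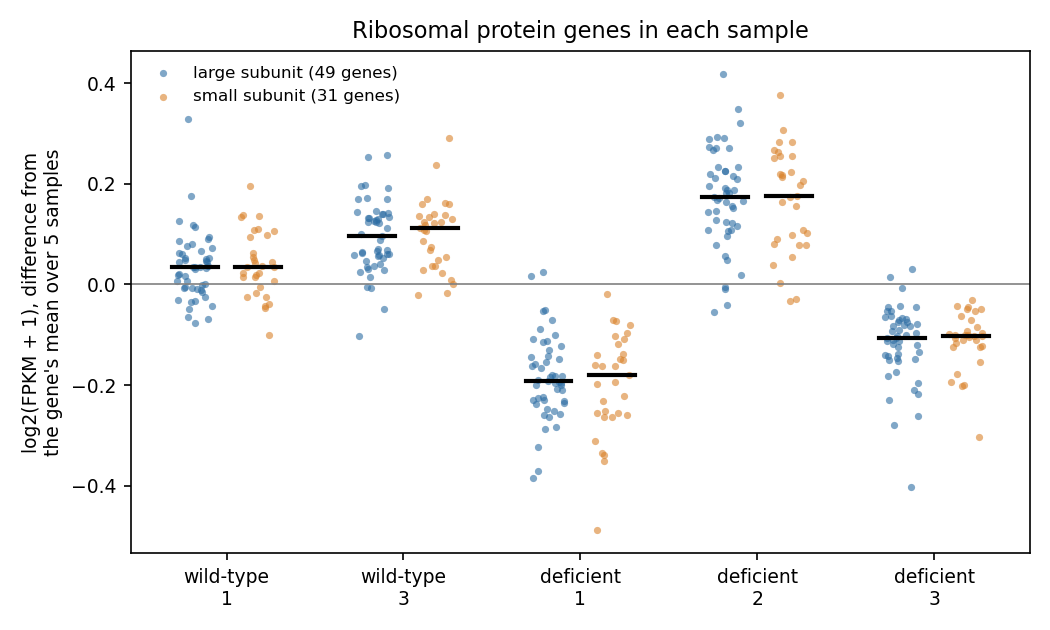
Difference of each tested ribosomal protein gene from its mean over the 5 samples (vertical axis, log2(FPKM + 1)) in the 2 wild-type and 3 Kdm6a-deficient samples; points are genes of the large (blue, 49) and small (orange, 31) subunit and bars are medians. Deficient samples 1 and 3 have medians of −0.19 and −0.10 and deficient sample 2 of 0.17, with the subunits side by side in every sample.

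The difference between deficient samples exceeded that between genotypes. Deficient sample 2 was above deficient sample 1 in 78 and above deficient sample 3 in all 80 of the tested genes of the family, with median log2 differences of 0.38 and 0.29. The medians of these differences over all tested genes were 0.012 and −0.002. Against the mean of the wild-type pair, deficient sample 2 was above it in 62 genes, by a median of 0.12, while the mean of deficient samples 1 and 3 was below it in all 80, by a median of 0.22. Over all tested genes the median differences from the wild-type mean were 0.007 for deficient sample 2 and 0.004 for deficient samples 1 and 3. Wild-type sample 3 was above wild-type sample 1 in 67 genes, by a median of 0.07, where the median over all tested genes was 0.03. The share of all tested genes lying in each direction was not counted for these differences.

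Despite this spread, 14 genes, 8 of the large and 6 of the small subunit, had all 3 deficient samples below both wild-type samples, and none had all 3 above. The background was 19.2% of tested genes for the former and 16.7% for the latter, so the 14 of 80 are near the share found among all genes. With 2 against 3 samples, the exact permutation p of any gene cannot go below 0.1. The 14 genes were Rpl5, Rpl7, Rpl13a, Rpl15, Rpl23, Rpl35, Rpl39l and Rplp0 of the large and Rps2, Rps6, Rps12, Rps15a, Rps20 and Rps24 of the small subunit, of which Rpl7, Rpl15, Rpl23, Rps2, Rps6 and Rps24 were named only after their values were seen.

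**Figure D3:**
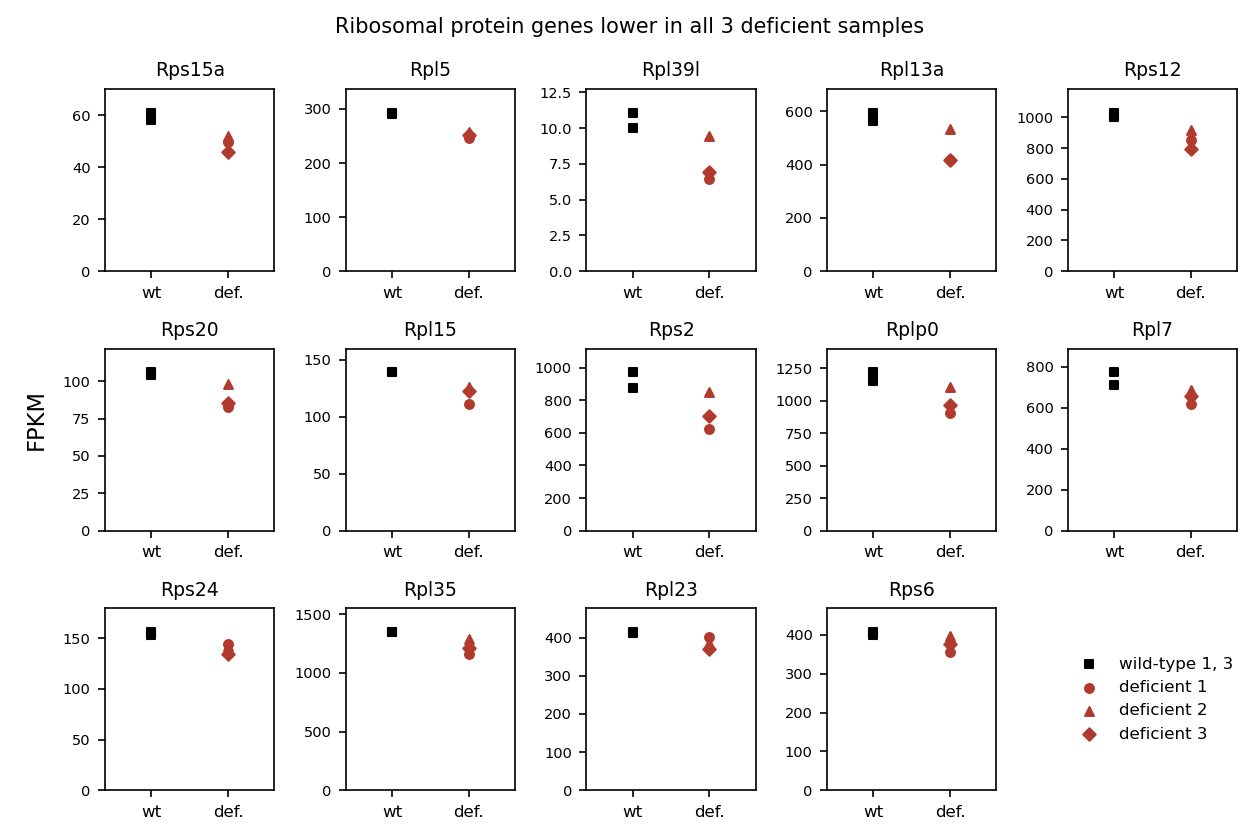
FPKM (vertical axes, from 0) of the 14 ribosomal protein genes with all 3 Kdm6a-deficient samples (def., red; circle, triangle and diamond for samples 1, 2 and 3) below both wild-type samples (wt, black squares). Deficient sample 2, the triangle, is the highest deficient sample in 12 of the 14 panels, Rps24 and Rpl23 being the others.

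Rps15a, a protein of the small subunit body, had the smallest p of the family. It measured 60.9 and 58.2 FPKM in wild-type samples 1 and 3 and 49.6, 52.0 and 46.0 FPKM in deficient samples 1, 2 and 3. All 3 deficient samples were close together and apart from the wild-type pair. By limma the adjusted p was 0.12, at a log2 fold change of −0.27 ± 0.08 (standard error).

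Rpl5, which carries 5S ribosomal RNA into the large subunit together with Rpl11 and which binds the p53 ligase Mdm2, was the tightest of the group. Its level was 289.8 and 293 FPKM in wild-type and 247, 257 and 252 FPKM in deficient samples. The deficient samples lay close together and well apart from the wild-type pair (adjusted p = 0.18 by limma, log2 fold change −0.21 ± 0.07, standard error). Rpl11, its partner, did not follow it, with 322 and 347 FPKM in wild-type and 312, 399.9 and 325 FPKM in deficient samples, where deficient sample 2 was the highest; it was named after its values were seen.

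Rpl13a, known in human monocytes as the subunit of an interferon-induced complex that silences inflammatory mRNAs, had the lowest log2 fold change of the large subunit genes above 100 FPKM. It was at 564 and 594 FPKM in wild-type (mean 579 ± 21.5, SD, n = 2) and at 415, 533 and 416 FPKM in deficient samples (mean 455 ± 67.8, SD, n = 3). Deficient samples 1 and 3 were nearly equal and deficient sample 2 stood between them and the wild-type pair. The adjusted p by limma was 0.20, and the log2 fold change −0.36 ± 0.12 (standard error).

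Rpl39l, a copy of Rpl39 best known from male germ cells, had the lowest fold change of the family with 1 FPKM added before the logarithm, whereas with 0.1 FPKM added the lowest was that of Rpl32l, at −0.52 against −0.48. It measured 11.1 and 10.03 FPKM in wild-type and 6.44, 9.47 and 6.92 FPKM in deficient samples, again with deficient sample 2 nearest to wild-type. Its adjusted p was 0.19 by limma, at a log2 fold change of −0.44 ± 0.15 (standard error).

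Rps12 was at 1005 and 1031 FPKM in wild-type and at 850.2, 918 and 797 FPKM in deficient samples. Rps20, of the small subunit head, was at 104 and 106 FPKM in wild-type and at 82.7, 98.4 and 85.1 FPKM in deficient samples. Both had all deficient samples below wild-type, with log2 fold changes of −0.25 each (standard error 0.09 each) and adjusted p of 0.22 each by limma. Rps2, near the mRNA entry channel, was named after its values were seen and had a fold change as low as that of Rpl13a. It measured 874 and 972 FPKM in wild-type and 622, 851 and 702 FPKM in deficient samples, with an adjusted p of 0.25 by limma and a log2 fold change of −0.36 ± 0.14 (standard error). Deficient sample 2 again lay nearest to wild-type.

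The 3 proteins of the stalk that recruits elongation factors, Rplp0, Rplp1 and Rplp2, differed in pattern although they sit in 1 complex. Rplp0, the base of the stalk, was at 1150.3 and 1218 FPKM in wild-type and at 907, 1106 and 965 FPKM in deficient samples, without overlap (adjusted p = 0.28 by limma, log2 fold change −0.26 ± 0.11, standard error). Rplp1 measured 1124 and 1225 FPKM against 913, 1389 and 971 FPKM, so that deficient sample 2 was the highest of all. Rplp2 measured 782 and 811 FPKM against 812, 924 and 680.1 FPKM. Its deficient samples 1 and 2 were above the wild-type pair and deficient sample 3 below it, and its log2 fold change was 0.01 (standard error 0.13). Whether these 3 genes differed from each other in response was not tested.

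Rpsa, a small subunit protein also described as a laminin receptor, measured 672 and 713 FPKM in wild-type and 594, 691 and 611 FPKM in deficient samples, where deficient sample 2 fell between the wild-type samples. Rps4x, encoded on the X chromosome as Kdm6a is, was at 577 and 620.2 FPKM against 477, 659.6 and 530.5 FPKM. Rps27a, which is made as a fusion with ubiquitin, was at 381 and 380.5 FPKM against 348, 469.5 and 361 FPKM. In the last pair deficient samples 1 and 3 were below and deficient sample 2 above wild-type.

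Paralogues that share a name gave no uniform pattern. Rpl39 was at 537 and 600.1 FPKM in wild-type and at 402, 632 and 488 FPKM in deficient samples. It overlapped between genotypes, unlike Rpl39l. Rpl36a, on the X chromosome, was at 435 and 471 FPKM against 392, 486 and 389 FPKM, and Rpl36al, its autosomal copy, at 251 and 248 FPKM against 229, 314 and 249 FPKM. Rps27, at 859 and 909 FPKM in wild-type and 653, 995 and 759.5 FPKM in deficient samples, spread more widely than Rps27l. Rpl3, near the centre where peptide bonds form, was at 358 and 385 FPKM against 304, 382 and 324 FPKM, and Rpl10, which joins the large subunit late in assembly, at 782 and 818 FPKM against 620.2, 875 and 714 FPKM. Each of these genes had deficient sample 2 as its highest deficient sample.

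All 12 genes with a fold change above 0 had one below 0 once deficient sample 2 was left out. The 4 largest were Rpl36, Rpl36al, Rps29 and Rpl38, at log2 fold changes of 0.09, 0.07, 0.06 and 0.05, all smaller than their standard errors of 0.18, 0.13, 0.18 and 0.15. Rpl36 was at 63.1 and 58.8 FPKM in wild-type and at 58.8, 84.7 and 54.2 FPKM in deficient samples. Rpl38, which in mice is required for the translation of particular Hox mRNAs, was at 179.7 and 185 FPKM against 163, 237 and 173 FPKM. In all 4 genes deficient sample 2 was the highest of the 5 samples, and without it the fold changes became −0.11 for Rpl36, −0.06 for Rpl36al, −0.11 for Rps29 and −0.12 for Rpl38.

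Leaving out deficient sample 2 moved the family further than any other omission. All 80 fold changes were then below 0, with a median of −0.22, while the median of all tested genes stayed at 0.00. Of the family 10 genes passed the test as lower, against a background of 3.63%: Rpl12, Rpl13a, Rpl27a, Rpl34, Rpl39l, Rplp0, Rps2, Rps12, Rps15a and Rps20. Deficient samples 1 and 3 were both below both wild-type samples in 71 of 80 genes, against a background of 27.4%, and in 48 of these 71 deficient sample 2 was above both wild-type samples. Rpl12, Rpl27a and Rpl34, named here after their values were seen, were of this kind: Rpl34 was at 251 and 258 FPKM in wild-type and at 204, 268 and 203 FPKM in deficient samples 1, 2 and 3. Omitting either of the other deficient samples brought the family closer to 0: the median was −0.04 without deficient sample 1 and −0.08 without deficient sample 3, with no gene called. The count of 71 was made only without deficient sample 2, the sample in which 57 of the 80 genes had their highest value. These genes move together between samples, so 71 of 80 is not a count of separate observations. No label marks deficient sample 2 as different.

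**Figure D4:**
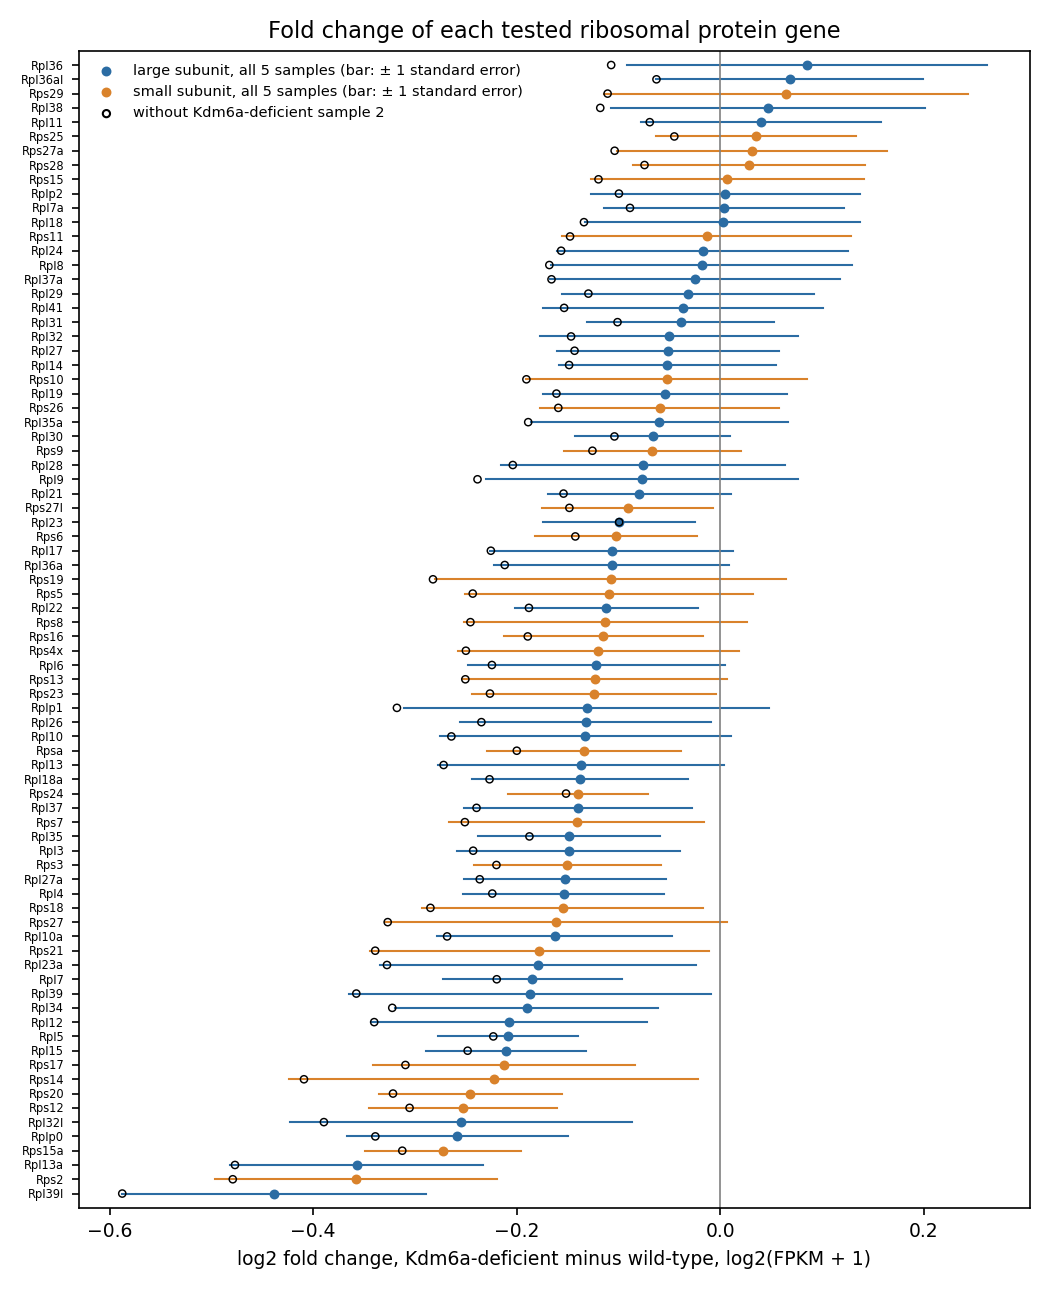
Log2 fold change of each of the 80 tested ribosomal protein genes (Kdm6a-deficient minus wild-type, log2(FPKM + 1)), ordered by value, with bars of 1 standard error to either side, for the large (blue) and small (orange) subunit; open circles give the value without deficient sample 2. With all samples 68 values lie below 0, and without deficient sample 2 all 80 do.

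Transcript length moved with the sample that stood apart. Among tested genes outside the family, those under 600 bases had a median difference from their mean of 0.13 in deficient sample 2, and those of 5000 bases or more of −0.16, while in the other 4 samples the medians of these length classes lay between −0.06 and 0.08. Ribosomal protein transcripts are short, with a median annotated length of 689 bases against 2136 bases over all tested genes. Short genes outside the family had medians nearer to their own mean in deficient samples 1 and 3. Those under 600 bases had medians of −0.06 and −0.01 in these samples, where ribosomal protein genes under 600 bases (27 genes) had −0.19 and −0.11. The median log2 fold change was 0.04 for the former and −0.09 for the latter. Abundant short genes outside the family (at least 100 FPKM on average and under 1000 bases, 196 genes) had a median log2 fold change of 0.10, with 0.20 in deficient sample 2, −0.06 in deficient sample 1 and 0.00 in deficient sample 3. What part transcript length had in the values of the family was not tested.

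**Figure D5:**
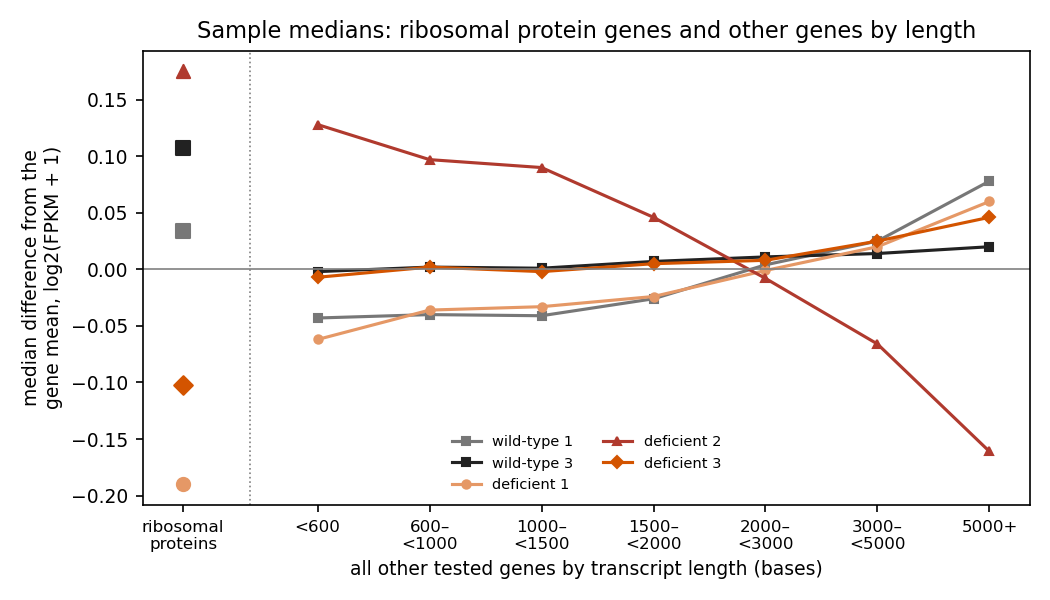
Median difference from the gene mean over 5 samples (vertical axis, log2(FPKM + 1)) in each sample, for the ribosomal protein genes (left of the dotted line) and for all other tested genes by transcript length in bases (right). Deficient sample 2 runs from 0.13 in the shortest to −0.16 in the longest class, and the ribosomal protein genes of deficient samples 1 and 3, at −0.19 and −0.10, lie below every length class of their samples.

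When a trend with transcript length was removed from each sample, 4 of the 80 tested genes of the family passed the test as lower, Rpl5, Rpl13a, Rplp0 and Rps12. The background was 3.24% of tested genes, so the 4 of 80 are near the share found among all genes. After quantile normalisation 6 of 80 passed as lower, Rpl5, Rpl13a, Rpl15, Rplp0, Rps2 and Rps20, against a background of 2.66%. Rpl13a and Rplp0 were called under each of these settings and without deficient sample 2. The family's median log2 fold change was −0.15 and −0.11 under these settings.

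The subunits did not separate. The median log2 fold change was −0.11 for large and −0.12 for small subunit genes, and −0.21 and −0.23 without deficient sample 2. The ratio of summed FPKM of large to small subunit genes was 1.37 and 1.38 in wild-type and 1.40, 1.36 and 1.37 in deficient samples, so the genotypes overlapped. The largest single departures were Rps14 in deficient sample 1, at −0.49 from its mean, and Rpl36 in deficient sample 2, at 0.42.

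Rack1, Fau and Rps3a1 are core ribosomal protein genes whose symbols fall outside the rule. Rack1, a scaffold of the small subunit, was at 569 and 607 FPKM in wild-type and in deficient samples at 484, 609 and 546 FPKM. Fau, which encodes a fusion with Rps30, was at 329 and 346 FPKM against 315, 389.9 and 326 FPKM. In both genes deficient sample 2 was the highest and deficient sample 1 the lowest of the 5. Rps3a1 was at 621 and 657 FPKM against 537, 644 and 591 FPKM, where deficient sample 1 was again the lowest but deficient sample 2 lay between the wild-type samples. None of these genes was called.

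Translation factors of the TOP class had a median like that of the family, without the high values of deficient sample 2, where their median difference from the mean was 0.01. None of the 15 tested passed the test, 11 had a fold change below 0 (background 48.5%), and the median log2 fold change was −0.11. Eef1a1, which brings aminoacyl-tRNA to the ribosome, was at 2724 and 2843 FPKM in wild-type and at 2352, 2426 and 2482 FPKM in deficient samples. Eef2, the translocation factor, was at 697 and 750.5 FPKM against 605, 667 and 613 FPKM, and Tpt1, an abundant TOP mRNA, at 1427 and 1496 FPKM against 1149, 1322 and 1204 FPKM. Eif4b, a cofactor of the helicase Eif4a, was at 82.1 and 84.0 FPKM against 69.7, 69.4 and 75.1 FPKM. Eef1b2, a nucleotide exchange factor of Eef1a1, was at 185 and 195 FPKM against 146, 179 and 156 FPKM. These 5 genes, of which Eef1a1 was chosen after its values were seen, and Eif3e and Eif3h had all deficient samples below both wild-type samples, which makes 7 of 15 against a background of 19.2%. Their adjusted p by limma ranged from 0.17 for Eif4b to 0.55 for Eif3e.

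Other parts of ribosome production did not show the lower median. Mitochondrial ribosomal proteins had a median log2 fold change of 0.05 (77 genes tested, 0 called), with sample medians of 0.17 in deficient sample 2 and between −0.05 and −0.01 in the other 4. Translation initiation factors had 0.04 (33 genes, 0 called), ribosome assembly factors 0.06 (68 genes, 0 called) and RNA polymerase I with its cofactors 0.06 (20 genes, 0 called). Of the assembly factors 18 had all deficient samples above and 3 had all below both wild-type samples, against the backgrounds of 16.7% and 19.2%. Among 20 genes of the mTORC1 and Myc pathways the median was 0.02 and 1 was called, Mxi1, a Myc antagonist, which was lower at 6.71 and 6.55 FPKM in wild-type and 4.68, 4.17 and 4.57 FPKM in deficient samples (adjusted p = 0.03 by limma, log2 fold change −0.48). Myc was at 20.3 and 20.7 FPKM against 17.3, 18.4 and 15.7 FPKM, without overlap, and did not pass the test (adjusted p = 0.20 by limma). Larp1 was at 26.1 and 26.7 FPKM against 28.1, 25.5 and 28.2 FPKM.

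The authors' means of size-factor normalised counts, a second measure that shares these libraries, placed the family at 3.30% of all counts in wild-type and 3.12% in deficient cells. The mean was lower in deficient cells for 67 of the 82 genes of the family. The share of all genes with a lower mean was not computed, so this count has no background beside it. The means move in steps of 3 sizes per genotype, as means over 3 samples would, whereas 2 wild-type samples were analysed here, and they carry no spread. For Rpl13a the authors' mean was 12251 in wild-type and 9878 in deficient cells, and for Rps15a 6270 and 5368.

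Several genes of the family have near-identical copies, and their values are uncertain to that extent. RefSeq names pseudogenes of 62 of the 82 genes, with 24 for Rps12. The authors' mean count per FPKM in deficient cells had a median of 15.1 over the tested genes and ranged from 4.18 to 109. The highest was that of Rps15a, at an annotated length of 639 bases, where Rpl13a, at 495 bases, had 21.7. Mean FPKM and the authors' mean count in deficient cells had a rank correlation of 0.53 over the tested genes, so the order of genes by level depends on the measure. What sets the count per FPKM was not tested. Copies outside the rule gave Rpl22l1 at 62.6 and 66.3 FPKM in wild-type and 37.3, 56.5 and 44.5 FPKM in deficient samples (log2 fold change −0.49, adjusted p = 0.16 by limma). Rps27rt was at 43.5 and 39.98 FPKM against 19.7, 41.7 and 34.5 FPKM. Neither was called, and in both deficient sample 2 was the highest deficient sample.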

How the data were processed

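Per the labels, libraries were made from total RNA of LPS-treated BMDMs with an Illumina TruSeq kit, whereas the study's methods name a VAHTS Total RNA-seq kit. TopHat was used by the authors for mapping, and Cufflinks for the FPKM of each gene. The submitters' processing notes list Bowtie 0.12.2. Other versions, the roles of the builds listed there and the strand setting were not given in the sources used. The same deposited table holds a signal for each genotype, the authors' DESeq mean of counts divided by size factors, used only as a description. The authors' fold changes and p-values in that table were not used.

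Values were tested with limma 3.58.1 (limma-trend, R 4.3.3) on log2(FPKM + 1), with no block and all 5 samples fitted together. A gene had to reach 1 FPKM in 2 samples, and was called at a Benjamini-Hochberg adjusted p under 0.05 over all 10893 tested genes. On this scale the fold change of a low gene is understated. The script was tested on simulated data first. No counts per sample were used, so no count-based interval is given, and depth was only estimated, relative to wild-type sample 1.

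The genes of the family, the gene lists and the alternatives were chosen with earlier results of these data known. Named genes were the 3 highest and 3 lowest of each subunit by mean FPKM, the 6 smallest p, the 4 largest positive fold changes, the stalk genes, Rpsa, Rps27a, genes listed at 0, like-named paralogues with Rps4x, and up to 4 genes of smallest p in each other list. Annotated lengths came from GENCODE and start regions from RefSeq (GRCm38.p6). No coordinates of the authors' build were used. Alternatives covered the pseudocount, filters, scalings, length, a replicate block, each sample left out and the prior variance.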

Additional observations from a re-analysis of the deposited data

How the results depend on the processing

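The family's median log2 fold change, and that of either subunit, stayed below 0 under all 14 alternatives run, and no gene of the family was called higher under any of them. The number called, 0 with all samples, was 6 after quantile normalisation and 4 after removal of a length trend, and ranged from 0 to 10 when each sample was left out, 10 being without deficient sample 2. With the replicate number as a block it was 47, all lower, but the numbers were not taken as pairs. Of all 10893 tested genes, 560 (5.14%) were called lower in that fit. Deficient sample 2 has no wild-type partner and so adds nothing to that fit's fold change, and no label says what a number shares. Deviations from the genotype mean had r = 0.43 over genes for the samples numbered 1 and r = −0.14 for those numbered 3. With 2 wild-type samples the wild-type deviations mirror each other, so these r values cannot decide whether the numbers mark pairs. The sign turned for 8 named genes, all with small values. Under the replicate block it became −0.107 for Rpl36, −0.063 for Rpl36al, −0.118 for Rpl38, −0.1 for Rplp2, −0.104 for Rps27a and −0.111 for Rps29. Quantile normalisation gave −0.003 for Rpl36al, −0.015 for Rpl38 and −0.003 for Rps27a, and Rplp2 was −0.011 after upper quartile scaling and −0.016 after removal of the length trend. Leaving out each sample gave −0.107 to 0.211 for Rpl36, −0.063 to 0.163 for Rpl36al, −0.118 to 0.151 for Rpl38, −0.153 to 0.061 for Rpl41, −0.1 to 0.121 for Rplp2, −0.159 to 0.01 for Rps26, −0.104 to 0.111 for Rps27a and −0.111 to 0.205 for Rps29. The cause was not tested. Tests on counts were not run, since no counts per sample were used here. With 2 wild-type samples, differences of the size seen in most of these genes cannot be separated from the spread between deficient samples.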
